A study of Mus musculus with 4 samples.

Results

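Conventional dendritic cells were examined in single-cell RNA counts from 4 mammary tumours. A cell was taken as one when its barcode held 500 or more mouse UMIs from 250 or more genes, no more than 20% of them mitochondrial, and it then passed a gate on marker counts. A UMI, or unique molecular identifier, stands for 1 captured transcript. The gate asked for at least 2 UMIs summed over Flt3, Cd209a, Xcr1, Clec9a and Zbtb46, at least 5 of H2-Ab1, none of Siglech, at most 1 over Cd3d, Cd3e and Cd3g, and fewer than 3 over C1qa, C1qb and C1qc. It kept 122 of 14555 quality-passing cells, of which 43 and 41 came from the wild-type (WT) tumours and 14 and 24 from the IL1α-/- tumours.

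Conventional dendritic cells grow from bone marrow precursors under the receptor Flt3, carry the transcription factor Zbtb46 and present antigen to T cells on MHC class II. One kind, cDC1, depends on Irf8 and Batf3, carries the chemokine receptor Xcr1 and the dead-cell receptor Clec9a, and is known for cross-presenting tumour antigen to CD8+ T cells on MHC class I. The other kind, cDC2, carries Sirpa and lectins such as Cd209a and Clec10a and is known for presenting to CD4+ T cells; monocytes that enter inflamed tissue can take on many of the same genes. Interleukin 1α, the product of Il1a, is an alarmin that signals through Il1r1 to NF-kB.

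The tumours came from the HER2+ mouse mammary line H605, injected into the mammary pad of FVB/NJ hosts labelled as 6 to 8 weeks old and collected at day 14. Hosts were WT (2 tumours) or IL1α-/- (2 tumours), called knockout below, and the same line was injected into both. The labels say that the tumours were taken as 2 pairs on separate days and give each group replicates 1 and 2, without tying a number to a day. Each tumour counted as 1 sample.

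The 2 WT libraries held 23464120 and 29001333 UMIs and the 2 IL1α-/- libraries 6705368 and 15298532, so the WT libraries were the deeper ones. The gated cells held 384069 and 529261 UMIs in WT tumours and 82284 and 210416 in knockout tumours, with a median per cell of 8954 and 8115 against 3749.5 and 8027.5. No barcode of a gated cell in one library was a gated cell in another. Il1a had 0 UMIs in the gated cells of all 4 tumours, so it did not check the labels in these cells; in C1q macrophages, defined below, it stood at 43.8 and 23.8 CPM (UMIs scaled to 1e6 mouse UMIs of the cells summed) in WT tumours and had no UMI in either knockout tumour. In 6 gated cells, at least 5 UMIs of Col1a1, Col3a1, Dcn, Krt8, Krt18 and Krt19 were found, genes of fibroblasts and tumour epithelium. Each group had 1 such cell in replicate 1 and 2 in replicate 2, and these cells carried 3.02% and 23.7% of the gated UMIs in WT and 35.4% and 16.5% in knockout tumours. Of the 6, 4 had passed the gate on 2 Zbtb46 UMIs alone. The planned tests were run on all 122 cells, and each is also given on the 116 cells without them. Levels below are over the 116 cells unless a sentence says otherwise. Free RNA, estimated from T cell, NK cell and tumour genes, made up 2.71% and 1.24% of the UMIs of these cells in WT and 5.99% and 1.01% in knockout tumours.

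**Figure D1:**
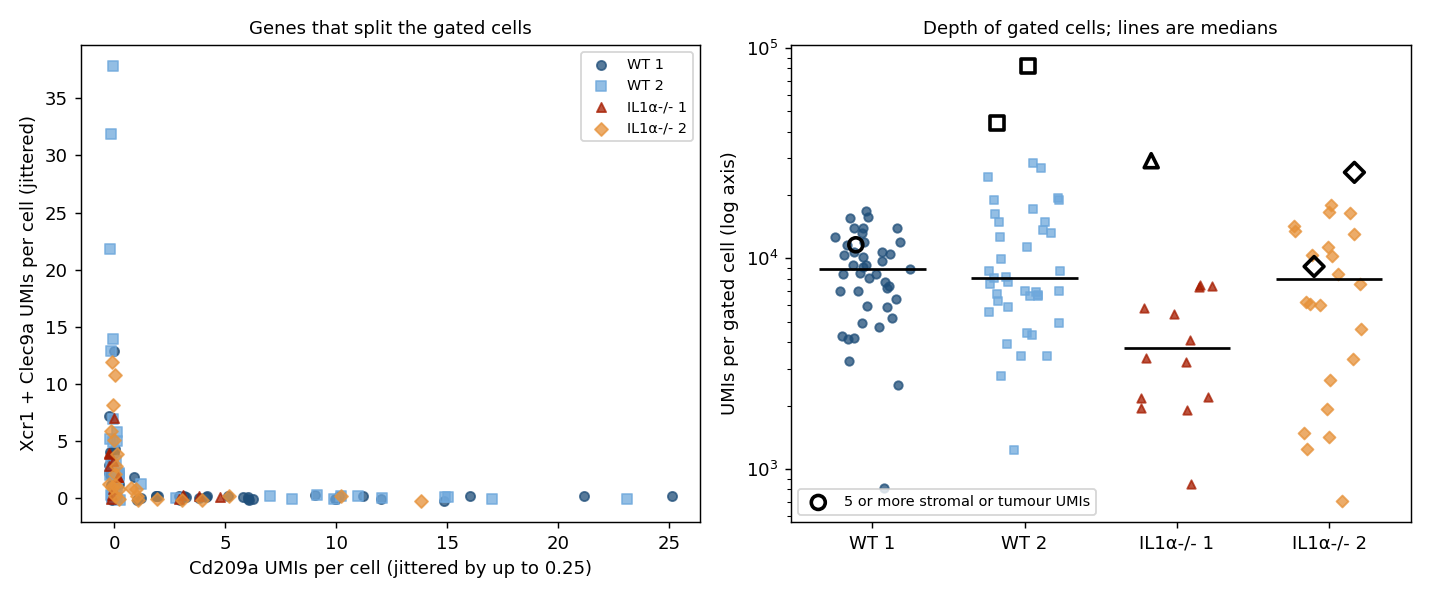
Left, each point is 1 of the 122 gated cells, with Cd209a UMIs on the x axis and Xcr1 plus Clec9a UMIs on the y axis; nearly all points lie along one axis or the other. Right, UMIs per gated cell on a log axis, by tumour, with the median as a line; the 6 open symbols are the cells with at least 5 stromal or tumour UMIs, of which the deepest, in WT replicate 2, held 81746 UMIs.

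The genes of the gate chose the cells, so their values are a description. Xcr1 (ENSMUSG00000060509, chromosome 9 from 123852315 to 123862029 in GRCm38) stood at 105 and 299.8 CPM in the WT tumours and 414 and 233 CPM in the knockout tumours. All other quality-passing cells of the same tumours held 1.07 to 2.22 CPM of it. Clec9a (chromosome 6 from 129408862 to 129424763) stood at 24.2 and 124 CPM in WT and 75.2 and 91.1 CPM in knockout tumours. Cd209a (chromosome 8 from 3743397 to 3748984) stood at 556 and 349 CPM in WT and 282 and 222 CPM in knockout tumours, the only one of these 3 genes for which both knockout tumours lay below both WT tumours. Flt3 was at 77.9 and 126 CPM in WT and 188 and 96.8 CPM in knockout tumours, and Zbtb46 at 45.6 and 52.0 against 94.1 and 68.3 CPM. H2-Ab1, the beta chain of MHC class II, was at 8165 and 8122 CPM in WT and 7656 and 8592 CPM in knockout tumours, against 612 to 1268 CPM in all other cells. Many cells sat near the limit on the 5 dendritic genes: 5 and 11 WT cells and 3 and 6 knockout cells held exactly 2 such UMIs, while 7 and 28 WT cells and 6 and 10 knockout cells were left out with 1.

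Genes outside the gate that stood highest in the gated cells over all other cells, by the lowest ratio of the 4 tumours, were led by Cst3, Wdfy4 and Naaa. These too describe the gate and carry no test: of 1659 genes at 50 CPM or more in the gated cells of every tumour, 88 (5.3%) were at least 2-fold higher there in all 4. Cst3, the protease inhibitor cystatin C, stood at 12834 and 12992 CPM in all 122 cells of the WT tumours and 9880 and 15755 CPM in the knockout tumours, against 298 to 767 CPM in the other cells. Wdfy4, which cDC1 need for cross-presentation, stood over the same 122 cells at 312 and 414 CPM in WT and 377 and 409 CPM in knockout tumours, against 8.55 to 11.4 CPM elsewhere. Naaa, an acid amidase, followed with log2 ratios from 3.63 to 4.62 over the 4 tumours. Other leaders were Batf3 and Cbfa2t3, both transcriptional regulators of the cDC lineage, Btla, an inhibitory receptor, and the MHC class II genes H2-Ob, H2-DMb2, H2-Aa, Cd74 and their transactivator Ciita. Cd74, the invariant chain, ran from 8544 to 16112 CPM over the 4 tumours. Of the 25 leaders over 122 cells, 23 were also among the 25 over 116 cells.

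Markers of other cell types were then summed over the 116 cells. The 13 macrophage markers summed to 725 and 523 CPM in WT and 132 and 342 CPM in knockout tumours, against 505 to 2386 CPM in the other cells, and 1 marker was at 0 in each WT tumour against 11 and 5 in the knockout tumours. The 10 monocyte markers summed to 3641 and 2337 CPM in WT and 2427 and 1361 CPM in knockout tumours, against 2899 and 3217 CPM in the other cells of the WT and 3648 and 4397 CPM in those of the knockout tumours, and so lay above the other cells in WT replicate 1 and below them in the other 3 tumours. Of the 12 T and NK markers, 7 to 9 were at 0 in each tumour. Of the 9 B and plasma markers, 6 to 8 were at 0; nearly all their UMIs were of Ighm, which had 58 and 82 UMIs in WT and 10 and 20 in knockout tumours. The 4 red cell markers had no UMI, and the 5 mast cell and basophil markers had 13 UMIs in WT replicate 2 and none elsewhere.

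The gated cells fell into 2 kinds when Xcr1 plus Clec9a UMIs were set against Cd209a UMIs. On the Xcr1/Clec9a side were 54 cells, 13 and 21 from WT and 8 and 12 from knockout tumours. On the Cd209a side were 53 cells, 29 and 12 in WT and 4 and 8 in knockout tumours, and 15 cells had equal counts. The sides were defined by these 3 genes, so what follows describes them without a test. Side levels are over all cells of a side; the Cd209a side holds 2 of the mixed cells, in WT replicate 1 and knockout replicate 2, and the other side none. In knockout replicate 1 the Cd209a side rests on 4 cells with 10442 UMIs, where 1 UMI equals 95.8 CPM. Of the 53 cells on the Cd209a side, 31 had passed the gate on Cd209a alone, and their median depth was 6990 UMIs against 10408 on the Xcr1/Clec9a side. Flt3 had 12 and 9 UMIs on the Cd209a side of the WT tumours, or 54.5 and 95.0 CPM, and 0 on that side of both knockout tumours, where 1 UMI equals 95.8 and 19.4 CPM. Zbtb46 had 7 and 4 UMIs there in WT and 0 and 6 in knockout tumours.

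The Xcr1/Clec9a side carried the cDC1 genes. Of the 18 members of the cDC1 list other than Xcr1 and Clec9a, 15 were higher on this side than on the Cd209a side in all 4 tumours and none was lower in all 4, with or without the mixed cells. Among 2625 genes of at least 50 CPM, 327 (12.5%) were higher on the Xcr1/Clec9a side in all 4 tumours and 429 (16.3%) on the Cd209a side, and without the mixed cells 309 and 424 of 2607. Irf8, the transcription factor on which cDC1 depend, stood at 1028 and 1949 CPM in WT and 1300 and 865 CPM in knockout tumours on the Xcr1/Clec9a side, against 81.7 to 192 CPM on the other. Tlr3, the receptor for double-stranded RNA, stood at 160 and 103 CPM in WT and 170 and 95.2 CPM in knockout tumours, and on the Cd209a side it had UMIs in WT replicate 1 alone, at 4.54 CPM. Itgae, the integrin CD103, ran from 84.8 to 251 CPM and had no UMI on the Cd209a side of any tumour. Dnase1l3, a secreted DNase outside the lists, led this direction, at 427 and 451 CPM in WT and 198 and 164 CPM in knockout tumours with no UMI on the Cd209a side. Kit, the stem cell factor receptor, Btla, Cd24a, Rab7b, Ppt1 and Naaa were further leaders. Cst3 was far higher here as well, at 22015 to 26291 CPM against 1704 to 3563 CPM. Batf3 did not separate the sides: it was at 141 to 291 CPM on the Xcr1/Clec9a side and at 169 to 383 CPM on the Cd209a side.

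Antigen presentation genes leaned the same way. Of 13 MHC class II presentation genes, leaving out the gate gene H2-Ab1, 6 were higher on the Xcr1/Clec9a side in all 4 tumours (H2-Aa, H2-Eb1, Cd74, H2-Oa, H2-Ob and Ciita) and 2 on the Cd209a side (the proteases Ctss and Ctsh). Without the mixed cells 5 of the 6 were left, Cd74 no longer among them. H2-Aa, the alpha chain, stood at 6345 and 5534 CPM in WT and 7205 and 8071 CPM in knockout tumours, against 5497 and 3704 in WT and 4501 and 6215 CPM in knockout tumours on the Cd209a side. Of 17 MHC class I presentation genes, 6 were higher on the Xcr1/Clec9a side in all 4 tumours and none on the other, with or without the mixed cells: H2-Q7, the peptide transporter subunits Tap1 and Tap2, and the proteasome genes Psmb8, Psmb9 and Psme1. Psmb9 stood at 775 and 1254 CPM in WT and 1243 and 1280 CPM in knockout tumours, against 95.8 to 317 CPM. The cell cycle genes Top2a, Birc5 and Hmgb2 were higher on the Xcr1/Clec9a side in all 4 tumours, 3 of 20 in that list, which is near the share of all genes; without the mixed cells Hmgb2 was not.

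The Cd209a side carried lectins and myeloid genes. Of the 19 cDC2 genes other than Cd209a, 6 were higher there in all 4 tumours (Sirpa, Itgam, Clec10a, Ltb, Tnip3 and Cd209d), and 1, the inhibitory lectin Clec12a, was lower, with the same genes when the mixed cells were left out. Clec10a, a galactose-binding lectin, stood at 808 and 1414 CPM in WT and 1628 and 542 CPM in knockout tumours, against 0 to 60.6 CPM on the Xcr1/Clec9a side. Sirpa, an inhibitory receptor for CD47, stood at 222 and 306 CPM in WT and 95.8 and 136 CPM in knockout tumours, against 0 to 8.65 CPM; over the 116 cells of knockout replicate 1 up to 33.1% of its 2 UMIs could be free RNA. The leaders by the lowest ratio of the 4 tumours were Cd209d, a C-type lectin of the Cd209a family, with log2 ratios of 5.10 to 6.58, and Mrc1, the mannose receptor, with 4.47 to 5.55. Fcgr2b, the inhibitory Fc receptor, the lectin Clec4b1, Tmem176a, Tmem176b, S100a4 and the cytokine gene Osm were further leaders. S100a4 stood at 3254 and 3292 CPM in WT and 4214 and 3737 CPM in knockout tumours, against 374 CPM or less. Of the 15 leaders of this side, 14 were also among the 15 without the mixed cells.

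Cd209d and Cd209e are neighbours of Cd209a on chromosome 8, and both were higher on the side that Cd209a itself defined. The bases before the starts of all 3 genes are therefore shown. The 3 genes are close paralogues, and reads could be split between them in counting, so their separate levels are uncertain. Cd209e stood at 349.5 and 379.9 CPM in WT and 1437 and 329 CPM in knockout tumours on the Cd209a side, against 19.1 CPM or less. Sequences are from RefSeq on GRCm38.p6, minus strand, 5′ to 3′, and stop before the gene as GENCODE vM21 draws it. Capitals mark the composite element bound by PU.1 with an IRF partner, GGAA followed after any 2 bases by GAAA, searched on both strands over 250 bases before and 50 after the RefSeq start; the last base of the match of Cd209a is the first of that gene and is not printed:
Cd209a (chr8:3748985-3749234): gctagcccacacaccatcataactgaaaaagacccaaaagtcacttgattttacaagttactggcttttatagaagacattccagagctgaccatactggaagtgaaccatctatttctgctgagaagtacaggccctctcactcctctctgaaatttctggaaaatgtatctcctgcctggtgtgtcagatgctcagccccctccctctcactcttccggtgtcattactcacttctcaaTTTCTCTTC
Cd209d (chr8:3878556-3878749): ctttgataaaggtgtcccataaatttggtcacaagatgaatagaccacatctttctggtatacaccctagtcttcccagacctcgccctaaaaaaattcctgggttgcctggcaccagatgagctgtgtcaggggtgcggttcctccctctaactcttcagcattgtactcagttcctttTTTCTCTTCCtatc
Cd209e (chr8:3854310-3854536): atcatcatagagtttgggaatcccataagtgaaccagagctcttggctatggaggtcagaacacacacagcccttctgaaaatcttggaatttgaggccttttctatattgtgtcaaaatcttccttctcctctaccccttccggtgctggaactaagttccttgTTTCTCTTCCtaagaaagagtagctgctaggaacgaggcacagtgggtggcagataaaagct
All 3 windows held 1 match each. Of 32851 windows of that length in the table, 892 (2.72%) held this element on either strand. Among the 14 promoters found for 11 of the 15 leaders of the Cd209a side, 3 held it, those of Cd209d, Cd209e and Fcgr2b. The window of Fcgr2b lies inside that gene in GENCODE. The paralogues Cd209a, Cd209d and Cd209e carry the same letters in their matches, counting the base of Cd209a that is not printed. Their matches therefore do not count as separate ones, and the shares were not tested. Among the 12 promoters found for 10 of the 15 leaders of the Xcr1/Clec9a side, none held it. The AP-1 letters TGANTCA, the same on both strands, were in 7.81% of all promoters and in none of either set. The letters of interferon-stimulated elements, GAAA followed after any 2 bases by GAAA on either strand, which can overlap the composite element, were in 3.44% of all promoters, in none of the first set and in that of Clec4b1 in the other. A match here is a run of letters and not a binding site.

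Immediate early genes were also higher on the Cd209a side. Of 17 immediate early and dissociation genes, 11 (10 without the mixed cells) were higher there in all 4 tumours, where 16.3% of all genes were, and none on the other side, among them Jun, Junb, Jund, Atf3, Ier2, Dusp1 and Zfp36. Junb stood at 2297 and 1963 CPM in WT and 1245 and 1510 CPM in knockout tumours, against 480 to 1203 CPM; over the 116 cells of knockout replicate 1 up to 46.4% of its UMIs could be free RNA. Of 28 IL-1 and NF-kB genes, 7 (6 without the mixed cells, Birc3 being lost) were higher on the Cd209a side in all 4 tumours, not far above the 16.3% of all genes, and none on the other: Nfkbia, Nfkbiz, Tnfaip3, Tnf, Birc3, Icam1 and Ier3. Nfkbia, the NF-kB inhibitor that NF-kB itself induces, stood at 989 and 1214 CPM in WT and 287 and 832 CPM in knockout tumours, against 138 to 401 CPM. Of 25 cytokines, chemokines and their receptors, 5 were higher there in all 4 tumours, among them Ccl6, Ccl9, Ccr2 and Cx3cr1, which is near the share of all genes; without the mixed cells Cxcl9 was higher on the other side in all 4. Summed monocyte and macrophage markers were also higher on this side. The 10 monocyte markers summed to 5805 and 6564 CPM in WT and 4693 and 4201 CPM in knockout tumours on the Cd209a side. On the Xcr1/Clec9a side they summed to 484 to 952 CPM. Cells outside the gate held 2899 and 3217 CPM of them in WT and 3648 and 4397 CPM in knockout tumours. The Cd209a side thus lay above the cells outside the gate in every tumour but knockout replicate 2. Ccr2, Plac8, Lyz2, Cd14 and Fn1 were higher than on the Xcr1/Clec9a side in all 4, also without the mixed cells. The 13 macrophage markers summed to 1148 and 1425 CPM in WT and 383 and 871 CPM in knockout tumours, against 84.8 to 248 CPM. In knockout replicate 1 the 383 CPM were 4 UMIs, with 11 of the 13 markers at 0. Of the 10 macrophage markers outside the gate, 2 were higher in all 4 tumours, Mrc1 and Cd68, also without the mixed cells. That is near the share of all genes. Their part in the differences between the sides was not tested.

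**Figure D2:**
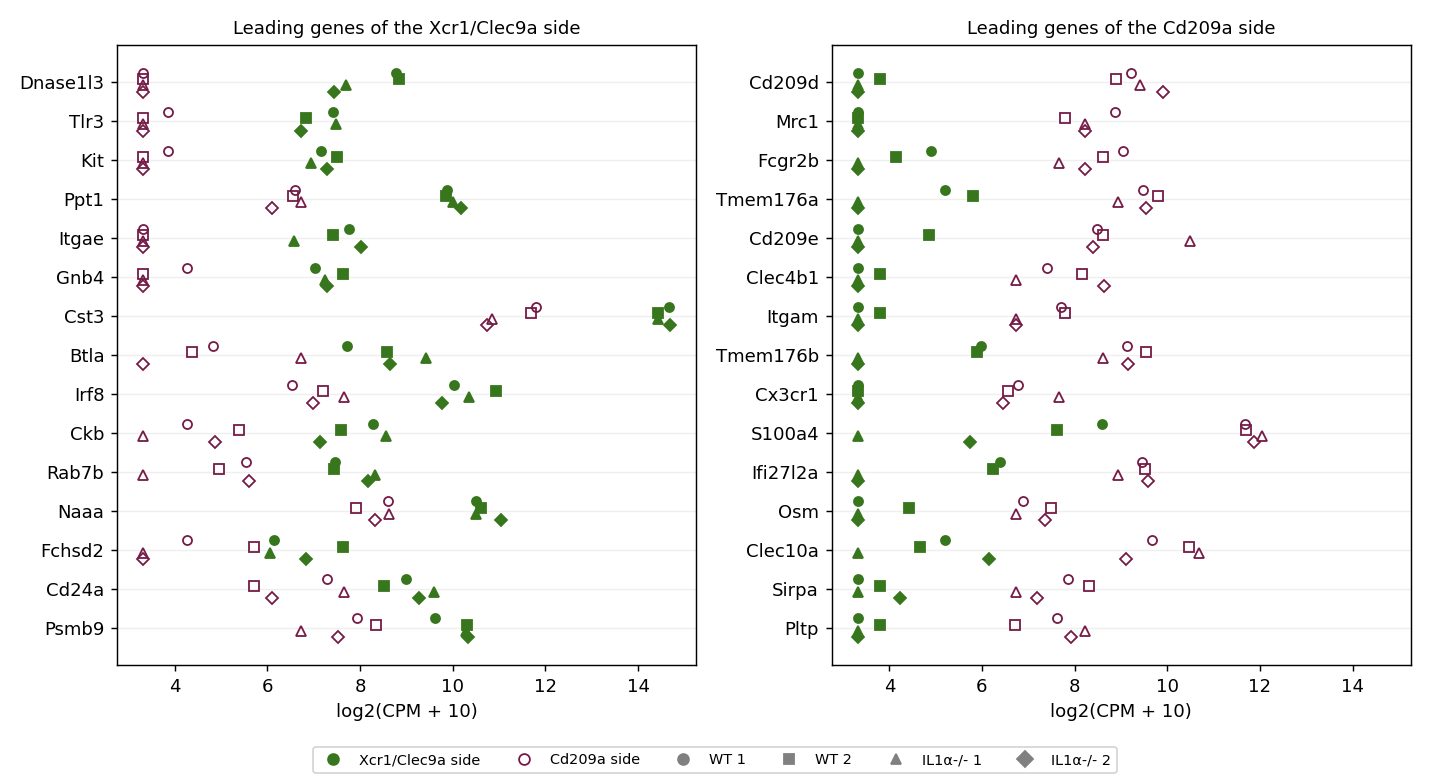
Each row is 1 of the 15 leading genes per direction, and each point its level in 1 tumour as log2(CPM + 10), filled for the Xcr1/Clec9a side and open for the Cd209a side; the left edge of the points is a level of 0. Filled and open points do not overlap in any of the 30 rows, for example 865 to 1949 CPM against 81.7 to 192 CPM of Irf8. The genes were picked for their ratio between the sides, so this separation comes with the choice.

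Whether the host's Il1a changes the share of these cells was compared first. Gated cells made up 1.07% (exact 95% Clopper-Pearson interval 0.779% to 1.44%) and 1.02% (0.735% to 1.39%) of quality-passing cells in the WT tumours, and 0.436% (0.238% to 0.730%) and 0.720% (0.462% to 1.07%) in the knockout tumours. Both knockout tumours lay below both WT tumours. The mean was 1.05% ± 0.0363 in WT and 0.578% ± 0.201 in knockout tumours (SD, n = 2 each). The shares thus differed by -0.471 percentage points (two-sided exact permutation p = 0.333, the smallest that 2 against 2 tumours allow), and by -0.480 points without the 6 mixed cells. The gate counts UMIs, and the knockout libraries were shallower. With every cell thinned to 2000 UMIs, and shallower cells left out, 2924 and 3164 WT cells and 856 and 2425 knockout cells remained. Of these, 22 in each WT tumour and 7 and 6 in the knockout tumours passed the gate. The gated share was then 0.752% and 0.695% in WT and 0.818% and 0.247% in knockout tumours, and the groups overlapped (exact permutation p = 1). Among cells with at least 5 H2-Ab1 UMIs the gated share was 8.62% and 5.66% in WT and 7.18% and 6.05% in knockout tumours, which overlapped too (exact permutation p = 1). Among cells with at most 1 Cd3 UMI it was 1.64% and 1.63% against 0.795% and 1.58%, again with both knockout tumours lower (exact permutation p = 0.333). Among cells of at least 1000 UMIs, not thinned, it was 1.16% and 1.12% against 0.563% and 0.745% (exact permutation p = 0.333). The groups were thus apart over all cells, cells of at least 1000 UMIs and cells with at most 1 Cd3 UMI, and overlapped after thinning, which changed both the depth and the cells counted, and among cells rich in H2-Ab1. Intervals cover counting error only.

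The make-up of the gated cells varied widely between the 2 WT tumours. The Xcr1/Clec9a side held 30.2% (17.2% to 46.1%) and 51.2% (35.1% to 67.1%) of the gated cells in WT and 57.1% (28.9% to 82.3%) and 50% (29.1% to 70.9%) in knockout tumours. Its mean was 40.7% ± 14.8 in WT and 53.6% ± 5.05 in knockout tumours (SD, n = 2 each), 12.8 points apart (exact permutation p = 0.667). Without the 6 mixed cells the gap was 15.6 points and the groups no longer overlapped (exact permutation p = 0.333), and without WT replicate 1 it was 2.35 points. The Cd209a side held 67.4% and 29.3% in WT and 28.6% and 33.3% in knockout tumours, which differ by -17.4 points on average (exact permutation p = 0.667); without WT replicate 1 that value was 1.68 points.

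**Figure D3:**
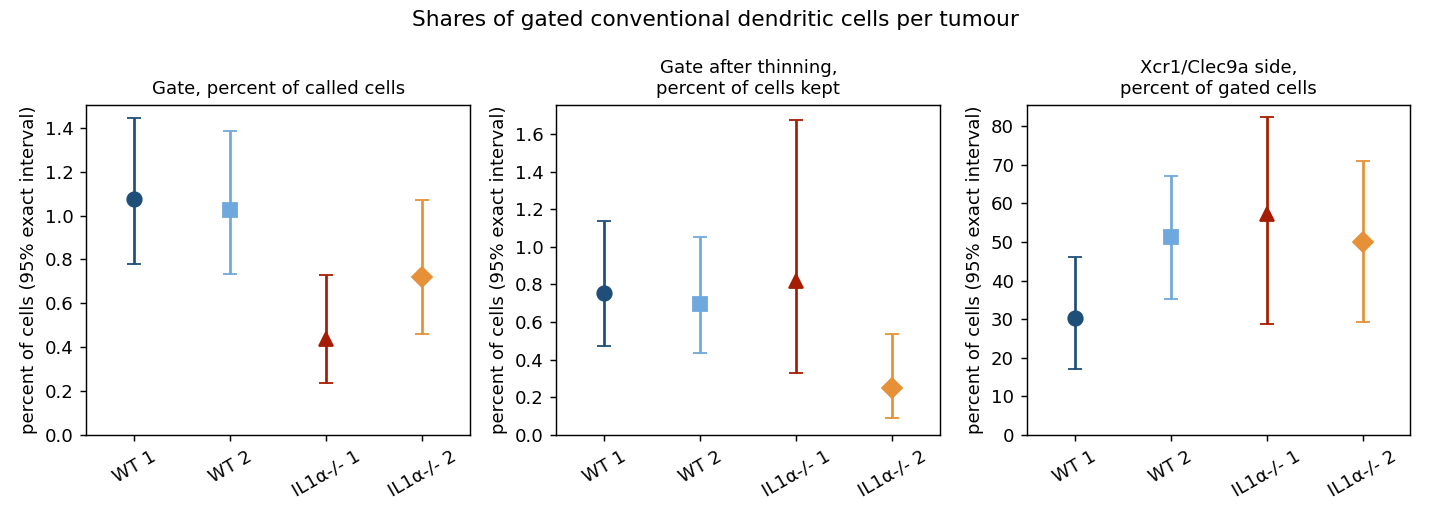
Points are the share per tumour with its exact 95% interval, as percent of called cells (left), as percent of cells kept after thinning to 2000 UMIs (middle) and as the Xcr1/Clec9a side in percent of gated cells (right). The knockout tumours lie below the WT tumours on the left, at 0.436% and 0.720%, and on both sides of them in the middle, at 0.818% and 0.247%.

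Expression in gated cells was then compared between genotypes on counts summed per tumour. With edgeR's quasi-likelihood test and Benjamini-Hochberg adjustment, 0 of 4087 genes (0.0%) passed a threshold of 0.05 over the 122 cells, and 0 of 3711 (0.0%) over the 116 cells. At an unadjusted p under 0.05 there were 219 genes (5.36%) and 306 genes (8.25%), and DESeq2 called 1 gene (0.0245%) and 6 genes (0.162%). Over the 116 cells edgeR called 56 genes without knockout replicate 1, 37 without WT replicate 2, 16 without knockout replicate 2 and 0 without WT replicate 1; in these fits the lone tumour of a group is assumed to vary like the other group. With 2 tumours a group, levels in the 116 cells did not overlap between genotypes in 40.1% of the genes tested, 15.2% higher and 24.9% lower in knockout tumours, so a separation of this kind is common. The gene DESeq2 called over 122 cells was Ctla2a, which had 2 and 2 UMIs in WT and 7 and 38 in knockout tumours over those cells, and 1 and 2 against 4 and 0 over the 116 cells, where free RNA could account for 89.7% or more of them.

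The genes named in this and the next paragraph were chosen after their values were seen, from those with low p-values in the edgeR fit. Ptgs2 (chromosome 1 from 150100031 to 150108227) encodes the inducible prostaglandin synthase COX-2, a classical target of IL-1 signalling. It had 68 and 62 UMIs in WT and 2 and 4 UMIs in knockout tumours, or 183 and 154 CPM against 37.6 and 22.8 CPM. The means were 168 ± 20.5 and 30.2 ± 10.5 CPM (SD, n = 2 each) with a log2 fold change of -2.55 (SE 0.48, edgeR adjusted p = 0.192) over 116 cells and -2.32 over 122 cells (edgeR adjusted p = 0.866). The groups did not overlap. In WT replicate 1 all 68 UMIs were on the Cd209a side, and in WT replicate 2 there were 29 on the Cd209a side and 33 on the other, all 33 in 1 cell of 3934 UMIs. Ptgs2 UMIs were found in 26.2% and 10.3% of the 42 and 39 WT cells and in 15.4% and 9.09% of the 13 and 22 knockout cells, which overlap. Without that 1 cell WT replicate 2 stood at 72.6 CPM and the log2 fold change was -2.16 (SE 0.69, edgeR adjusted p = 0.471). Free RNA could account for up to 28.4% and 16.5% of the few knockout UMIs. Summed macrophage markers were also lower in the knockout tumours, as given above, and their part in this difference was not tested.

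Hspa1b, an inducible Hsp70 chaperone, had 96 and 28 UMIs in WT and 1 and 0 in knockout tumours (log2 fold change -4.97, SE 1.24, edgeR adjusted p = 0.327). It was lower in knockout tumours among C1q macrophages too, at 177.5 and 43.5 CPM against 34.8 and 1.65 CPM, and among Ly6c2 monocytes, at 133 and 142 CPM against 22.9 and 11.5 CPM. Jdp2, an AP-1 family repressor, was higher in knockout tumours, at 207 and 177 CPM against 26.8 and 44.6 CPM (log2 fold change 2.45, SE 0.39, edgeR adjusted p = 0.171). C1q macrophages kept this order, at 52.2 and 112 CPM in knockout and 21.1 and 21.9 CPM in WT tumours. All cells outside the gate kept it too. In Ly6c2 monocytes the groups overlapped, at 68.7 and 121 CPM against 74.1 and 21.1 CPM. On the Xcr1/Clec9a side Jdp2 stood at 283 and 242 CPM in knockout and 13.4 and 30.6 CPM in WT tumours. On the Cd209a side it stood at 0 and 38.7 CPM against 36.3 and 73.9 CPM. Jdp2 was thus higher on the Xcr1/Clec9a side in both knockout tumours and lower there in both WT tumours. Eif3j1, a translation initiation factor subunit, stood at 150.5 and 125 CPM in knockout and 16.1 and 24.8 CPM in WT tumours (log2 fold change 2.75, SE 0.45, edgeR adjusted p = 0.171). C1q macrophages showed the same order for Eif3j1, with 287 and 145 CPM in knockout and 24.9 and 21.2 CPM in WT tumours. So did Ly6c2 monocytes, with 252 and 254 CPM against 0 and 27.2 CPM. All cells outside the gate did too, with 156 and 140 CPM against 21.0 and 22.3 CPM. Eif3j1 (from 122028546 to 122056598) lies on chromosome 2, as does Il1a (from 129299610 to 129309972). The part of this position in the difference was not tested.

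No member of any of the 13 gene lists passed in either edgeR fit, which is the share of all genes (0.0%). Over the 116 cells the median log2 fold change of all genes tested was -0.04. The genes of the gate are left out of the lists here. Among the 15 cDC1 genes tested the median was 0.47, with 12 above 0: Cst3 was at 0.25, Naaa at 0.49, Cd24a at 0.98 and Irf8 at -0.12. Naaa, for one, stood at 805 and 1179 CPM in WT and 1072 and 1515 CPM in knockout tumours, which overlap. Among the 12 cDC2 genes tested it was -0.70, with 7 below 0. Clec10a was at -0.84, with 494 and 391.5 CPM in WT and 339 and 177 CPM in knockout tumours. Over the 122 cells these medians were 0.25 and -0.79. The balance of the 2 sides also differed between the tumours, as given above, and its part in these medians was not tested.

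Of the 28 IL-1 and NF-kB genes 20 were tested; their median was -0.24, with 7 above and 13 below 0. Il1b, the other interleukin 1 agonist, stood at 829.6 and 339.5 CPM in WT and 282 and 376 CPM in knockout tumours (-0.72). Nfkbia stood at 730.3 and 548 CPM in WT and 169 and 382 CPM in knockout tumours (-1.01) without overlap, and up to 19.0% of its 9 UMIs in knockout replicate 1 could be free RNA. Ccl4, an inflammatory chemokine, stood at 295 and 280.0 CPM in WT and 1129 and 188 CPM in knockout tumours, so the knockout values lay on both sides of the WT values. The receptor gene Il1r1 had 4 UMIs in WT replicate 1 and 0 in the other tumours, the decoy receptor Il1r2 had 0 and 4 in WT and 0 and 2 in knockout tumours, and neither was tested. Ccr2, the chemokine receptor of monocytes and of cells that derive from them, stood at 926 and 515 CPM in WT and 395 and 285 CPM in knockout tumours (-1.08).

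The 12 MHC class II genes tested had a median of 0.09 and the 17 MHC class I genes one of 0.01, with ranges of -0.90 to 0.49 and -0.50 to 0.67; over the 122 cells these medians were -0.10 and -0.01. H2-Aa was at 0.37 and Cd74 at -0.12. Of the mature migratory genes 15 were tested, with a median of -0.20. Fscn1, an actin-bundling protein of migrating dendritic cells, had 15 and 46 UMIs in WT and 0 and 1 in knockout tumours (log2 fold change -3.91, SE 1.07, edgeR adjusted p = 0.348). Of the 46 UMIs in WT replicate 2, 38 lay in 1 cell, which also held 31 of the 32 Ccr7 UMIs of that tumour. Cd83, an activation marker, stood at 413 and 258 CPM in WT and 433 and 433 CPM in knockout tumours. Costimulation and checkpoint ligands (8 tested) had a median of -0.33, with Cd86, the ligand of CD28, at 107 and 141 CPM in WT and 75.2 and 114 CPM in knockout tumours. Pattern recognition genes (6 tested) had a median of -0.26 (0.06 over the 122 cells), and cytokine and receptor genes (14 tested) one of -0.24. Cell cycle genes (13 tested) had 0.03, immediate early genes (17 tested) -0.37 and genes shared by both kinds (12 tested) -0.40. Of the 12 shared genes 11 were below 0, as were 1981 of all 3711 genes tested. For 8 of the 12, both knockout tumours lay below both WT tumours, where 24.9% of all genes did so. The interferon response list moved with the mixed cells: its median was 0.78 over 122 cells (15 tested) and -0.05 over 116 cells (9 tested). Cxcl9, a chemokine for CXCR3, stood at 145 and 939 CPM in WT and 489 and 22.8 CPM in knockout tumours over 116 cells, and its log2 fold change was 1.96 with the mixed cells and -1.44 without.

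**Figure D4:**
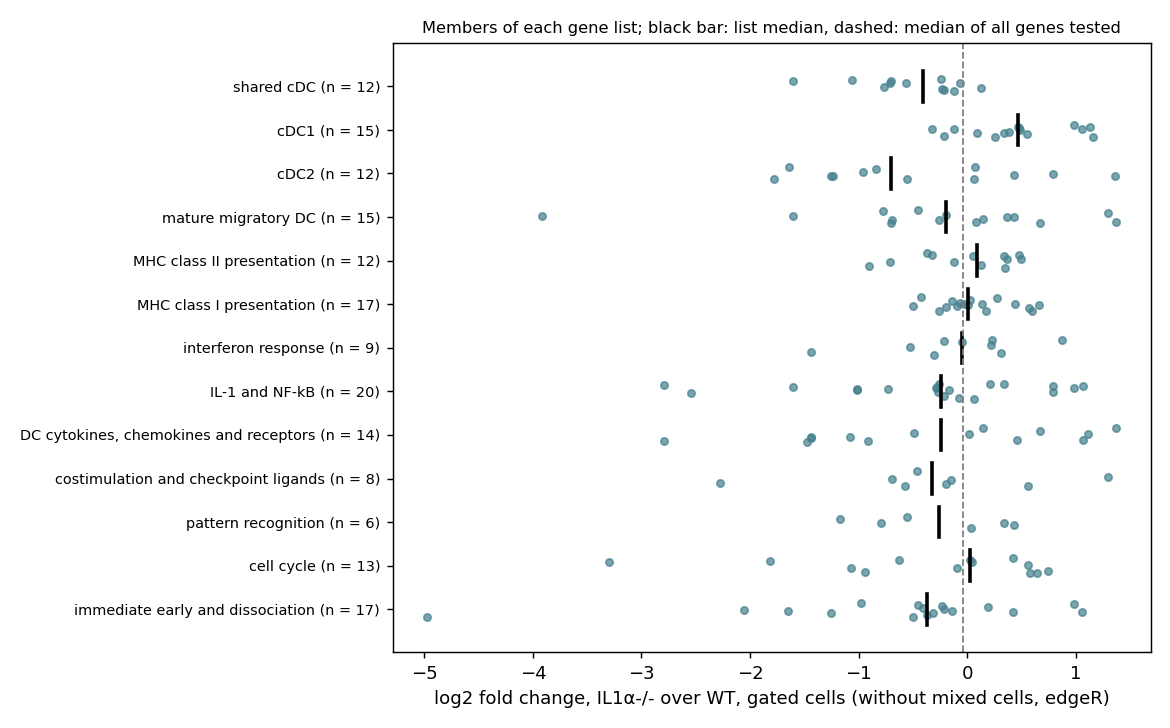
Each point is a member, gate genes left out, of the list named on the left, at its log2 fold change of IL1α-/- over WT tumours in the 116 cells; black bars are list medians and the dashed line is the median of all genes tested, -0.04. The cDC1 list has the highest median at 0.47 and the cDC2 list the lowest at -0.70, and no point passed the edgeR test after adjustment.

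Whether the genotype difference in these cells was unlike that in other myeloid cells was tested against 811 C1q macrophages, cells with at least 3 UMIs of C1qa, C1qb and C1qc, and against 162 Ly6c2 monocytes, cells with at least 2 Ly6c2 and 3 Lyz2 UMIs and fewer than 3 of C1q. The test was the interaction of class and genotype with the tumour as a block, in edgeR's quasi-likelihood fit with Benjamini-Hochberg adjustment. In the fits over the 116 cells, cells with stromal or tumour UMIs were left out of the gated cells alone. Macrophages and monocytes were not filtered in this way. Against macrophages, 5 of 6577 genes (0.076%) passed over the 122 cells, with 320 (4.87%) at an unadjusted p under 0.05: Postn, Col1a2, Rarres2, Sparc and Col1a1, all matrix or fibroblast genes and all at 0 to 37.6 CPM in the 116 cells. Over the 116 cells 7 of 5837 genes (0.12%) passed, with 361 (6.18%) unadjusted, among them Ptgs2, Egr1, Cxcl9, Ctsl, Id2 and Cx3cr1. Against Ly6c2 monocytes 0 of 3722 genes (0.0%) passed over the 122 cells and 0 of 3448 (0.0%) over the 116 cells, with 143 (3.84%) and 195 (5.66%) at an unadjusted p under 0.05.

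Ptgs2 differed from macrophages by -4.10 (log2, SE 0.57, edgeR adjusted p = 0.0102). It was lower in knockout tumours in the gated cells and stood higher there in C1q macrophages, at 43.1 and 55.6 CPM in WT and 156 and 137 CPM in knockout tumours. The call held over the 116 cells without the tumour block, at an adjusted p of 0.0386. It was not made over the 122 cells, at 0.106, or without the 1 WT cell that held 33 of its UMIs, at -3.61 and an adjusted p of 0.0767. Without any 1 of the tumours the difference over the 116 cells ran from -4.52 to -3.70. Those fits leave a lone tumour in a group and cannot show that the difference repeats. Against monocytes, where Ptgs2 stood at 400.1 and 187 CPM in WT and 252 and 300.3 CPM in knockout tumours, the difference was -2.57 (edgeR adjusted p = 0.101). Egr1, an immediate early transcription factor, differed by -3.28 (SE 0.46, edgeR adjusted p = 0.0102), with 123.5 and 233 CPM against 56.4 and 51.2 CPM in the gated cells and 172 and 294 CPM against 409 and 851 CPM in macrophages; up to 89.7% of its 3 UMIs in knockout replicate 1 and 38.7% of its 9 in replicate 2 could be free RNA. The same WT cell held 62 of the 94 Egr1 UMIs of WT replicate 2, and without it the difference was -2.52 (edgeR adjusted p = 0.212); over the 122 cells it was -0.19 (edgeR adjusted p = 1). Id2, an inhibitor of helix-loop-helix factors on which cDC1 depend, differed by -2.10 (SE 0.36, edgeR adjusted p = 0.0337). It stood at 808 and 934 CPM in WT and 715 and 626 CPM in knockout tumours in the gated cells, and at 140 and 170 CPM against 374 and 656 CPM in macrophages. Egr1 and Id2 were not called without knockout replicate 2, at adjusted p of 0.249 and 0.274, and not without the tumour block, where Ptgs2 alone passed. Cx3cr1, the fractalkine receptor, differed by 4.19 (SE 0.73, edgeR adjusted p = 0.0337). In the gated cells it stood at 59.1 and 19.8 CPM in WT and 113 and 28.5 CPM in knockout tumours. The knockout levels rest on 6 and 5 UMIs, of which 1 cell held 4 in each tumour. Without that cell they were 43.6 and 5.90 CPM. In macrophages Cx3cr1 stood at 599.7 and 89.3 CPM against 52.2 and 11.6 CPM. Cxcl9 differed by -2.39 (SE 0.39, edgeR adjusted p = 0.0337), turned to 1.14 over the 122 cells (edgeR adjusted p = 0.992), and stood at 312 and 1209 CPM in WT and 4390 and 180 CPM in knockout macrophages. Ctsl, a lysosomal protease, differed by -4.99 (SE 0.87, edgeR adjusted p = 0.0337) on 7 and 7 UMIs in WT and 0 and 1 in knockout gated cells, of which up to 41.6%, 20.6% and 100% could be free RNA; in macrophages it stood at 229 and 208 CPM against 417 and 2244 CPM. Cx3cr1 lost the call without WT replicate 1 (adjusted p = 0.0746) and without knockout replicate 1 (0.0521), Ctsl without knockout replicate 2 (0.672) and Cxcl9 without knockout replicate 1 (0.251). Over the 122 cells Id2 (-2.16), Cx3cr1 (3.88) and Ctsl (-2.63) kept their direction and were not called.

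**Figure D5:**
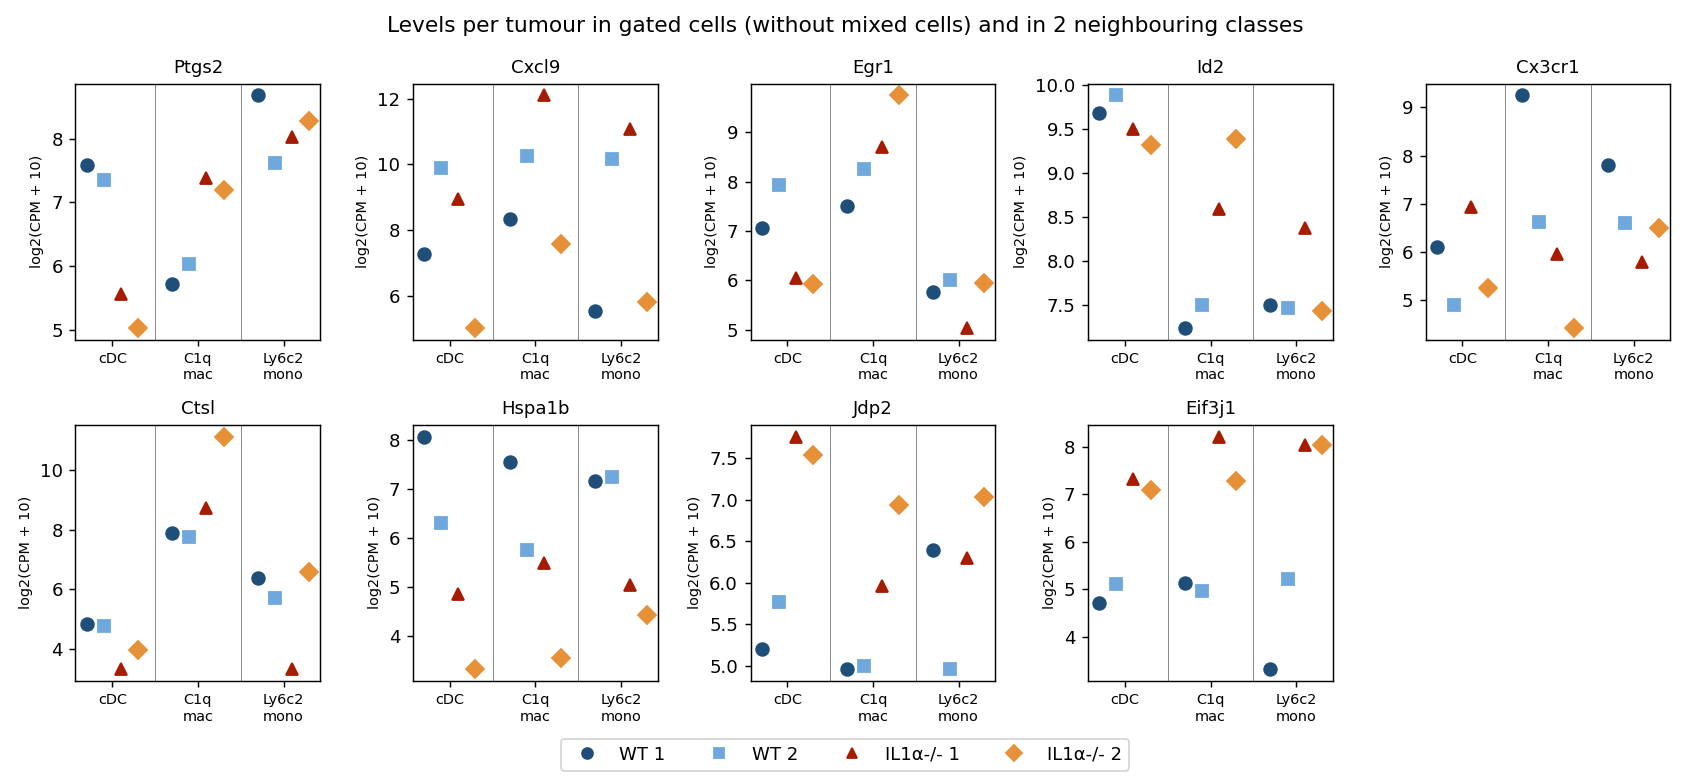
Each panel is 1 gene and each point 1 tumour, as log2(CPM + 10), in the 116 gated cells (cDC), C1q macrophages and Ly6c2 monocytes; the y axes differ between panels. Ptgs2 is lower in both knockout tumours in the gated cells (37.6 and 22.8 CPM) and higher in both in macrophages (156 and 137 CPM), while Eif3j1 is higher in both knockout tumours in all 3 classes.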

How the data were processed

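RNA of live tumour cells was captured by 10x Genomics 3' chemistry, per the labels' protocols. The deposited values are raw UMI counts per gene and barcode, made with Cell Ranger 3.1.0 per the submitters' processing notes, on mm10 with human genes alongside, of which only mouse rows were used. Barcodes were filtered and gated as given above, with no doublet removal; leaving out the highest Scrublet scores (scanpy 1.11.5) was an alternative. Counts were summed per tumour and tested with edgeR 4.0.16 (filterByExpr, TMM, quasi-likelihood, Benjamini-Hochberg over all genes tested), and the test was tried on simulated counts; DESeq2 1.42.0 was an alternative. CPM is a share of the UMIs of the summed cells, without correction for gene length. Leading genes were ranked by the lowest log2 ratio of the 4 tumours with 10 CPM added. Lists are described by counts and medians, naming called members or those of highest level. Ifi30, Cd244a, Clec7a and Clec6a were not analysed here, and some genes are counted but not reported here. The members and lists were chosen with earlier results of these data known. Free RNA was estimated from barcodes of at most 100 UMIs. Positions are from GENCODE vM21 (GRCm38). P-values of the genotype fits rest on the spread between 2 tumours a group, with dispersion shared across genes. Those of the interaction with the tumour as a block rest on differences between classes within tumours. Permutation p-values rest on all assignments of the tumours to the groups. Replicate numbers, which the labels do not tie to a collection day, were read as names.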

Additional observations from a re-analysis of the deposited data

Results flagged for a closer look

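Differences of the genotype effect between gated cells and C1q macrophages were tested as an interaction. Over all 122 cells the test called Postn (9.61 on the log2 scale), Col1a2 (7.20), Rarres2 (13.1), Sparc (8.08) and Col1a1 (7.46), higher in the knockout relative to macrophages; in knockout replicate 2 the fibroblast markers held 635 UMIs over all gated cells and 1 UMI without the 2 mixed cells there. Over the 116 cells it called 7 genes, among them Ptgs2 (-4.10), Cxcl9 (-2.39), Cx3cr1 (4.19), Ctsl (-4.99), Id2 (-2.10) and Egr1 (-3.28), and none of the first 5 was called there. Of these 7, Ptgs2 alone kept its call over the 116 cells without the tumour block, and it lost it, as did Egr1, without 1 cell of WT replicate 2 (-3.61 and -2.52). Fits without any 1 tumour leave a lone tumour in a group, and Ptgs2 ran from -4.52 to -3.70 in them.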

How the results depend on the processing

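The difference in the share of gated cells was -0.191 points with cells thinned to 2000 UMIs and between -0.613 and -0.329 points without any 1 tumour; the difference in the Cd209a side ran from -36.5 to 1.68 points and that in the Xcr1/Clec9a side from 2.35 to 23.3 points. Against 0 genes changed over 122 cells, 1 was called with at least 3 dendritic UMIs, 1 with DESeq2, 98 with no filter on low counts and 0 to 25 without any 1 tumour. Over 116 cells 6 were called with DESeq2, 34 with no filter and, without any 1 tumour, 0 to 56 (56 without knockout replicate 1, 16 without knockout replicate 2, 37 without WT replicate 2). The difference from C1q macrophages was called for 92 genes with no filter, 0 without the tumour block and 0 to 92 without any 1 tumour, and over 116 cells for 1 without the block, 8 with DESeq2 size factors and 15 to 43 without any 1 tumour (21, 43, 24 and 15 without WT replicates 1 and 2 and knockout replicates 1 and 2). The difference from monocytes was called for 13 genes with no filter, for 0 to 13 without any 1 tumour and over 116 cells for 1 to 10 (4, 1, 10 and 2, in the same order). Leaving out the 1 of the 116 cells with most Ptgs2 UMIs, chosen after seeing the data, left 0 genes changed, 5 that differed from macrophages and 0 from monocytes. These counts do not say that the genes were shared.

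With the replicate number as a block, 0 genes changed over 122 cells and 22 over 116 cells (16 higher and 6 lower). Among the 22 were Hspa1b and Jdp2 (both edgeR adjusted p = 8.6e-05), Eif3j1 (0.00144), Ptgs2 (0.00553) and Fscn1 (0.0099). Deviations of tumours with the same number correlated at -0.454 and -0.0439 across genes, so the pairing is not shown. A block of crossed numbers gave 83 and 0 genes. Within the same number the share of gated cells differed by -0.639 and -0.304 points.

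Log2 fold changes of single genes turned sign as follows, none of them called. Cxcl9 was at -0.34 with at least 3 dendritic UMIs, -1.44 over 116 cells, -1.29 there with the block, and between -0.29 and 3.64 without any 1 tumour. Egr1 was at -0.76, -1.65 and -1.74 under the first 3 of these. Cx3cr1 was at -0.22 with at least 3 dendritic UMIs and ran from -0.45 to 1.60 without any 1 tumour, Id2 was at 0.45 thinned, Cst3 at -0.031 with no filter, and Irf8 at 0.035 over 116 cells with the block. Without any 1 tumour, Cst3 ran from -0.37 to 0.43, Naaa from -0.27 to 0.78, Irf8 from -0.73 to 0.41, H2-Aa from -0.19 to 0.61, Cd74 from -0.73 to 0.10 and Il1b from -1.69 to 0.073. Causes were not tested. Tests within each side were not run, since not every tumour has 10 cells on a side.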

Other observations

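Ighm, the heavy chain of IgM, had 58 and 82 UMIs in the 116 gated cells of the WT tumours and 10 and 20 in the knockout tumours, while 6 to 8 of the 9 B and plasma markers were at 0 in each tumour. Its level was found on both sides, at 160 and 187 CPM in WT and 141 and 95.2 CPM in knockout tumours on the Xcr1/Clec9a side and at 136 and 295 CPM in WT and 383 and 116 CPM in knockout tumours on the Cd209a side. Free RNA could account for at most 2.99% and 0.803% of it in WT and 5.96% and 1.52% in knockout tumours.

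Single cells carried most UMIs of some genes. In WT replicate 2, 1 cell of the Xcr1/Clec9a side held 31 Ccr7 and 38 Fscn1 UMIs, and 1 cell held 42 of the 58 Mki67 UMIs. Il12b, a subunit of interleukin 12, had 28 UMIs in that tumour and 1, 0 and 1 in the others. Ccl17, a chemokine of cDC2, had 103 and 27 UMIs in WT and 0 and 49 in knockout tumours. Cd274, the checkpoint ligand PD-L1, stood at 43.0 and 39.6 CPM in WT and 0 and 137 CPM in knockout tumours.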
